A study of Saccharomyces cerevisiae with 6 samples.

Results

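RNA sequencing of the budding yeast Saccharomyces cerevisiae, strain background W303, was used here to describe what cells that overexpress PSD1 still change when they lack the transcription factor gene PDR3. The 4 libraries compared, of 6 in the series, were 2 of pdr3Δ cells that carried PSD1 under the GAL promoter on a 2µ plasmid (the pdr3Δ group) and 2 of wild-type control cells (WT), as named by the treatment in the labels. The other 2 libraries came from cells with PDR3 and the same GAL-PSD1 plasmid, and served as the reference for what PDR3 adds (the PDR3-positive PSD1 group). The medium held raffinose (2%) as its sugar, with peptone (2%) and yeast extract (1%), and the labels describe induction with 2% galactose for 4 h, marked as plus or minus, for all samples without saying which were induced. The labels name no plasmid for WT. No pdr3Δ cells without the plasmid, and no WT cells labelled as carrying an empty plasmid, were analysed here, so PSD1 overexpression, PDR3 loss, the plasmid and the sugar cannot be told apart in a comparison with WT.

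Psd1 converts phosphatidylserine to phosphatidylethanolamine in the inner membrane of mitochondria, and it reaches that membrane from the cytosol through the import translocases. Pdr1 and Pdr3 are paired zinc cluster transcription factors that bind a shared promoter element and switch on the pleiotropic drug resistance genes, mostly pumps and lipid enzymes of the plasma membrane. When mitochondrial import is blocked, Pdr3 also switches on CIS1, whose product links the AAA ATPase Msp1 to the import receptor Tom70 and helps to clear stalled precursors. Yeast has other routes that answer misfolded or unimported protein: Hsf1, which drives chaperones, Msn2 and Msn4, which drive general stress genes, and Rpn4, which drives the proteasome. The study asked how cells respond to stress on mitochondrial import.

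Total counts ranged from 10220872 to 12315448 per library, and 6171 of 6931 loci passed the expression filter. A locus was called at an adjusted p under 0.05 (edgeR quasi-likelihood, Benjamini-Hochberg over all 6171), and levels are given as CPM, counts scaled to the library total after TMM correction. In the pdr3Δ group 2415 loci, 39.1% of those tested, differed from WT, with 1210 higher (19.6%) and 1205 lower (19.5%). These shares over all loci are the reference for the counts of each list against WT below. The median log2 fold change of all loci was 0.005. Most calls were small: 138 loci (2.24%) were called and at least 2-fold higher, against 3.92% in the PDR3-positive PSD1 group, and 25 (0.405%) were at least 2-fold lower. Libraries of the groups did not overlap at 69.4% of loci against WT and at 63.5% between the PSD1 groups (77.8% for the PDR3-positive group against WT), so lack of overlap is common at 2 libraries per group. The markers of mating type a had a summed CPM, here without TMM correction, of 1032 and 1039 in WT and 857.3 and 880.2 in the pdr3Δ group. Those of type α had 56.3 and 58.2 and then 63.6 and 63.6. Each group thus carried mainly a-type transcripts. In the pdr3Δ group 4 of 7 a-type markers were lower than WT and 1 higher, and 2 of 4 α-type markers were higher. The higher a-type marker was AGA2, whose call was lost with DESeq2 and with each WT or pdr3Δ library left out, among others. Of the α-type calls that of MF(ALPHA)2 was lost with DESeq2 and with limma-voom, among others. The call of MF(ALPHA)1, at 26 and 24 counts in WT and 54 and 42 in the pdr3Δ group, was lost without pdr3Δ replicate 1.

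**Figure D1:**
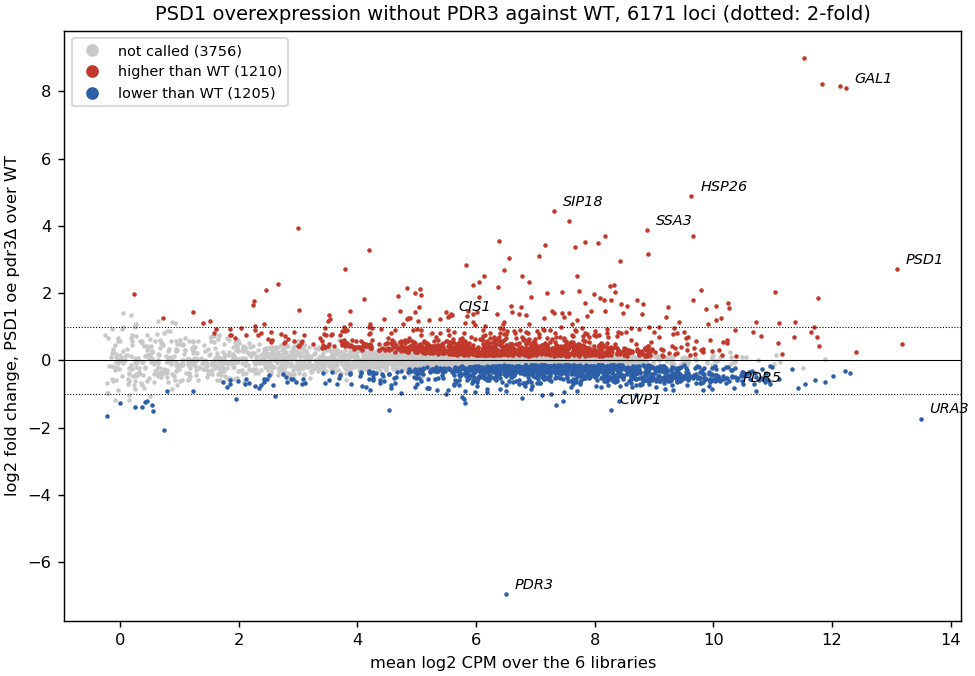
Log2 fold change of the pdr3Δ group over WT (vertical) against mean log2 CPM over the 6 libraries (horizontal) for 6171 loci, with loci called higher in red (1210), lower in blue (1205) and the others in grey. A small group of galactose genes lies above a log2 fold change of 8, PDR3 lies alone at -6.94, and most called loci lie between the dotted lines at a 2-fold change.

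The deleted and the overexpressed gene matched the labels. PDR3 (chromosome II, 217470 to 220400, plus strand, in the authors' transcript models on sacCer3) had 724 and 798 counts in WT, 2283 and 2245 in the PDR3-positive PSD1 group, and 3 and 9 in the pdr3Δ group. Of its neighbours, LDB7 and SLA1 were not called against WT (log2 fold changes of -0.02 and -0.06), whereas the Ty element frame YBL005W-B (0.79, adjusted p = 0.00112) and UTP20 (-0.28, adjusted p = 0.0103 by edgeR), on its other side, were. PSD1 (chromosome XIV, 316169 to 317671, minus strand) was at 1495 and 1319 CPM in WT, 14465 and 16488 in the PDR3-positive PSD1 group and 9369 and 9070 in the pdr3Δ group. The pdr3Δ group was thus 6.55-fold above WT (log2 2.71 ± 0.09 SE, n = 2 per group, adjusted p = 2.17e-08 by edgeR). It was also 1.68-fold below the PDR3-positive group (log2 -0.75 ± 0.09, adjusted p = 6.68e-04 by edgeR), so the 2 PSD1 groups differ in PSD1 RNA as well as in PDR3. The part of that PSD1 difference in the results below was not tested.

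The galactose genes separated both PSD1 groups from WT. GAL1, the galactokinase, was at 42.1 and 18.8 CPM in WT and at 8384 and 8037 in the pdr3Δ group (log2 8.09 ± 0.27, adjusted p = 1.84e-08 by edgeR), and at 6399 and 6008 in the PDR3-positive PSD1 group. Of 11 galactose genes tested, 9 were higher than WT in the pdr3Δ group: GAL7 by 8.99 on the log2 scale, GAL2 by 8.20, GAL10 by 8.15, GCY1 by 3.71, GAL3 by 3.53, GAL80 by 2.203, PCL10 by 1.43 and MTH1 by 0.89 besides GAL1. GAL4, the activator itself, and the uracil permease gene FUR4, which lies beside GAL1, were not called, at -0.17 and 0.12. Between the PSD1 groups GCY1, GAL3, GAL80 and FUR4 were somewhat higher without PDR3, by 0.35, 0.25, 0.24 and 0.42, while GAL1 (0.40, adjusted p = 0.164 by edgeR), GAL2, GAL7 and GAL10 were not called. The 4 higher calls were 8 without either WT library or with only the PSD1 groups fitted, and 2 without PDR3-positive replicate 2, which cost GAL3 and GAL80 theirs.

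URA3, orotidine decarboxylase and a common plasmid and deletion marker, went the other way. It was the locus with the highest count in WT, at 16645 and 17277 CPM, and stood at 12138 and 12783 in the PDR3-positive PSD1 group and at 4401 and 5842 in the pdr3Δ group. The fall from WT was 3.31-fold (log2 -1.73 ± 0.12, adjusted p = 3.33e-06 by edgeR) and that from the PDR3-positive group 2.43-fold. The labels do not name the marker of the plasmid or of the deletion. Every comparison with WT below was therefore made between cells that also differed in the galactose genes and in URA3.

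**Figure D2:**
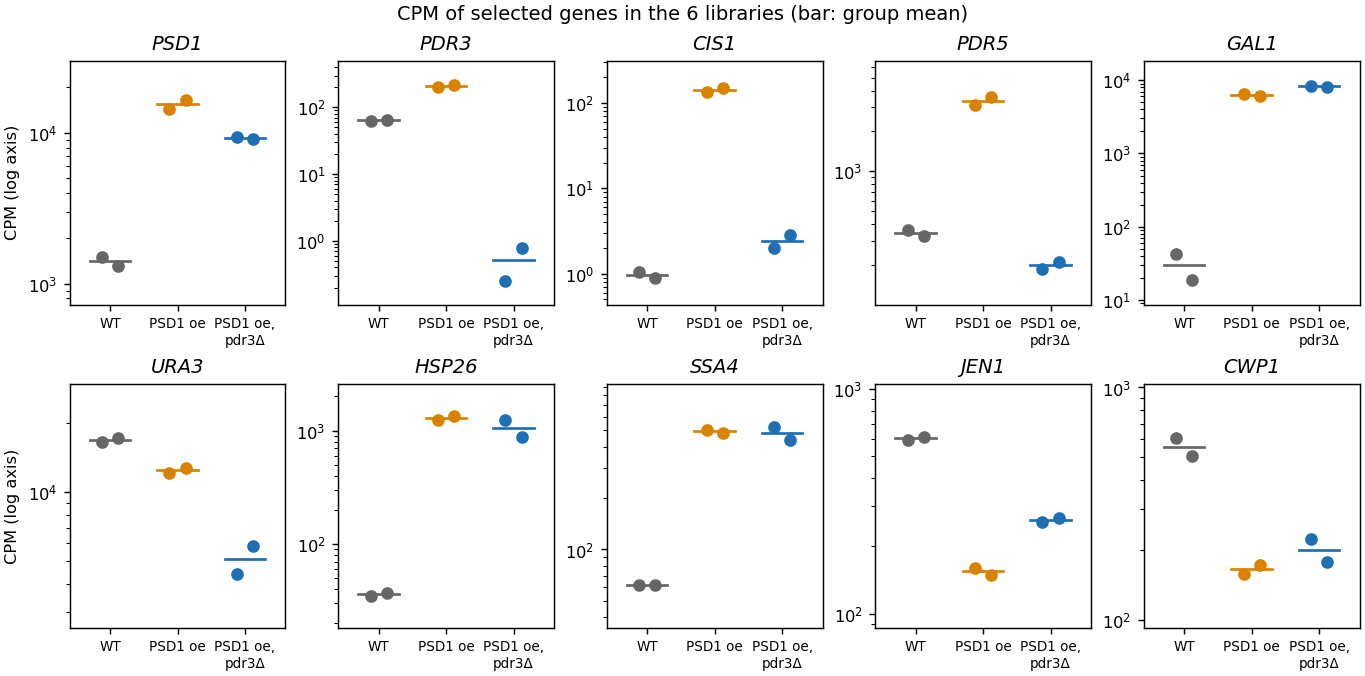
CPM on log axes of 10 genes in each of the 6 libraries (points) with the group mean (bar), for WT (grey), PSD1 overexpression with PDR3 (orange) and PSD1 overexpression in pdr3Δ cells (blue). CIS1 falls from 132.8 and 149.8 CPM with PDR3 to 1.99 and 2.88 without it and PDR5 drops below WT, while HSP26 and SSA4 stay far above WT in both PSD1 groups and JEN1 lies between WT and the PDR3-positive group.

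The 4 largest differences between the PSD1 groups after PDR3 itself were targets of Pdr1 and Pdr3 (CIS1, YGR035C, PDR5 and PDR15), and 10 of the 25 loci called and at least 2-fold lower without PDR3 were on the target list, PDR3 included. The target list was chosen with earlier results of these data known, so this overlap is a description and not a test. CIS1 was at 1.04 and 0.898 CPM in WT, 132.8 and 149.8 in the PDR3-positive PSD1 group and 1.99 and 2.88 in the pdr3Δ group. PDR5, the major drug efflux pump of the plasma membrane, was at 365.5 and 328.2 CPM in WT, 3123 and 3591 with PDR3, and 186.1 and 210.1 without it. GRE2, a methylglyoxal reductase, was at 41.3 and 42.6 CPM in WT, 353.8 and 392.7 with PDR3, and 103.3 and 119.8 without it. Their upstream sequences are shown because they carry the element that Pdr1 and Pdr3 bind. Each is 150 bases from within 500 bases upstream of the start codon, read 5′ to 3′ on the gene's strand from the RefSeq R64 genome, a reference of another laboratory strain than W303. Capitals mark matches to TCCGCGGA or TCCGTGGA on either strand (chrXII:822839-822988, minus strand, for CIS1, chrXV:619425-619574, plus strand, for PDR5 and chrXV:43472-43621, plus strand, for GRE2).
CIS1: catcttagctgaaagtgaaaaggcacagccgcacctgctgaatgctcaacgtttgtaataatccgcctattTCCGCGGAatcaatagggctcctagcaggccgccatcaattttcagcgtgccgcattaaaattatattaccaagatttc
PDR5: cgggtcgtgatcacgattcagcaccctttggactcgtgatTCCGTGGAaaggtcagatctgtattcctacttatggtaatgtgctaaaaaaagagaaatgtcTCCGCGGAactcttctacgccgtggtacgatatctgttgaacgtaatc
GRE2: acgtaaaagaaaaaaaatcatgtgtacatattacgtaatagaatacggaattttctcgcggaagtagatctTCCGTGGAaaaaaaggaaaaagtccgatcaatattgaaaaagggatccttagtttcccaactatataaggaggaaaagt
CIS1 and GRE2 hold 1 match in 500 upstream bases and PDR5 holds 3, of which 2 lie in the stretch shown. Matches were found in 90 of 5593 such windows (1.61%), in 17 of 22 windows of the target list (77.3%), and in 9 of 22 windows of loci called and at least 2-fold lower than in the PDR3-positive group (40.9%). Among loci called and at least 2-fold higher than WT without PDR3 they were found in 5 of 125 (4%). Windows of neighbouring genes can overlap, and a match does not show that the site is bound.

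Against WT, the median of the target list was small once PDR3 was gone, but part of the list stayed higher. Of 23 targets tested 10 were higher than WT and 5 lower, PDR3 itself among the latter, with a median log2 fold change of 0.118. Over all loci 19.6% were called higher and 19.5% lower. At least 2-fold higher were 4 of the 23, against 2.24% of all loci. In the PDR3-positive PSD1 group 21 of 23 were higher than the same WT libraries (27.9% of all loci were called higher there), with a median of 1.35. In the test between the PSD1 groups 19 were lower without PDR3 and none higher, with a median of -0.925. That comparison called 1291 loci (20.9%), of which 728 were higher (11.8%) and 563 lower (9.12%). CIS1 fell by 5.86 ± 0.13 on the log2 scale between the PSD1 groups (adjusted p = 3.54e-09 by edgeR), PDR5 by 4.08 ± 0.09 and the pump gene PDR15, counted with the overlapping YDR406W-A, by 3.11 ± 0.10.

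The members split by what was left above WT. CIS1 kept a rise of 1.31 ± 0.34 (adjusted p = 0.0113 by edgeR), resting on 12 and 11 counts in WT and 24 and 33 in the pdr3Δ group. That call was lost without WT replicate 2 or without pdr3Δ replicate 2 (adjusted p = 0.0607 to 0.0724). GRE2 kept 1.41 ± 0.09 and BDH2, a butanediol dehydrogenase, 0.82 ± 0.10, and each was lower than with PDR3, by 1.74 and 1.58. RPN4, the activator of proteasome genes, kept 0.51 ± 0.05, close to its 0.67 with PDR3, and the difference of -0.16 was called (adjusted p = 0.0362 by edgeR) but lost with DESeq2 (0.116) and without any 1 of the 4 libraries of the PSD1 groups (0.0741 to 0.202). The hexose transporter genes HXT9 and HXT11 were higher than WT by 1.13 and 1.18 and were not called between the PSD1 groups. The call of HXT9 was lost with DESeq2 and without WT replicate 2. They are near-identical copies at under 5 CPM, so their counts cannot be assigned to either with confidence. LAC1, a ceramide synthase, kept 0.31. YLL056C had 0.46, a call lost with DESeq2, without WT replicate 2 and without pdr3Δ replicate 1. The pump genes SNQ2 and PDR15 had 0.23 and 0.34, calls that were each lost under 5 alternatives, besides the demand for a 2-fold change. The list's 10 higher calls were 5 without WT replicate 2.

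The 5 members lower than WT, PDR3 among them, were close to the 19.5% of all loci called lower. PDR5 was 1.75-fold lower than WT (log2 -0.81 ± 0.09, adjusted p = 5.45e-05 by edgeR), with no overlap between libraries. YPL088W, a putative aryl alcohol dehydrogenase gene, was 0.53 lower, TPO1, a polyamine exporter, 0.22 lower and IPT1, a sphingolipid synthase, 0.15 lower. The 5 lower calls of the list were 3 without WT replicate 1 or without either pdr3Δ library, and the calls of TPO1 and IPT1 were the ones lost. The other members were not called against WT: the pump genes YOR1 (0.07) and PDR10 (0.21), the phosphatidylinositol transfer gene PDR16 (0.12), ICT1 (0.11), RSB1 (-0.05), SUR2 (0.05), LAF1 (-0.18) and YGR035C (-0.52 ± 0.34). YNR070W, a further member, did not pass the filter.

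**Figure D3:**
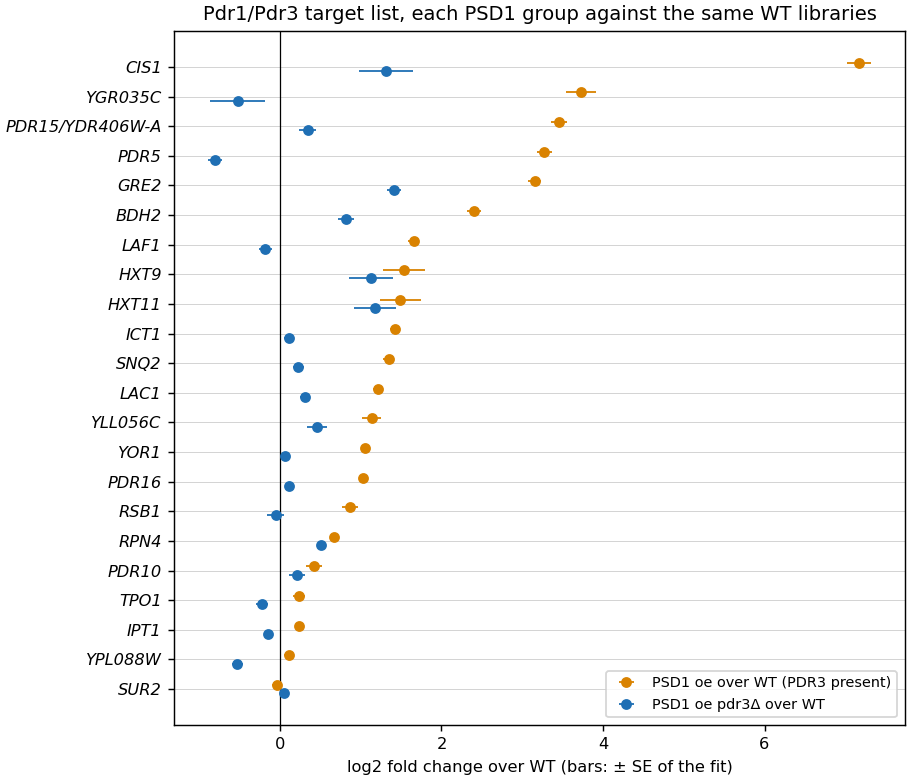
Log2 fold change over the same WT libraries, with SE of the fit, of 22 targets of Pdr1 and Pdr3 (PDR3 itself left out) in PSD1 overexpression with PDR3 (orange) and without it (blue). CIS1, PDR15 and PDR5 move from above 3 with PDR3 to between -0.81 and 1.31 without it, and RPN4, HXT9 and HXT11 move least among the members that were called higher than WT in both groups.

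The partner factor and the proteins that act with Cis1 changed little. PDR1 was at 107.2 and 106.1 CPM in WT and at 124.3 and 124.1 in the pdr3Δ group (log2 0.22 ± 0.05, adjusted p = 0.00422 by edgeR), and did not differ between the PSD1 groups beyond the spread (-0.04, adjusted p = 0.616 by edgeR). Of the other zinc cluster factors linked to drug resistance, STB5 had 0.27, a call lost under 5 alternatives besides the 2-fold demand, and RDR1, WAR1, PDR8, YRM1, YRR1 and RDS1 were not called, at -0.11 to 0.05. MSP1 stood at 138.9 and 132.6 CPM in WT and at 140.4 and 129.7 in the pdr3Δ group (log2 -0.01, adjusted p = 0.93 by edgeR). TOM70 was 0.27 ± 0.06 lower than WT (adjusted p = 0.00651 by edgeR, 0.0533 without pdr3Δ replicate 2). Of 18 drug transporters outside the target list 2 were higher and 4 lower than WT, with a median of 0.003: AQR1 rose by 1.08, and QDR2 and TPO4 fell by 0.65 and 0.50. The 2 higher calls were 1 without WT replicate 1 or either pdr3Δ library, and the median was -0.0569 without pdr3Δ replicate 2.

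The chaperone response of the cytosol remained in cells without PDR3. HSP26, a small heat shock protein that holds unfolded proteins, was at 35.1 and 36.8 CPM in WT and at 1240 and 881.8 in the pdr3Δ group, a 29.5-fold rise (log2 4.88 ± 0.16, adjusted p = 1.25e-08 by edgeR). SSA3, a stress-induced Hsp70, went from 45.4 and 43.7 CPM to 654.3 and 641.6 (log2 3.86 ± 0.05, adjusted p = 4.44e-11 by edgeR). SSA4, the other inducible cytosolic Hsp70, went from 62.0 and 61.9 CPM to 523.5 and 437.1 (log2 2.95 ± 0.08). In all 3 the WT and pdr3Δ libraries lay far apart. Of 25 genes of the cytosolic heat shock list 24 were higher than WT and none lower, with a median of 0.984, against 19.6% of all loci. HSP82, the inducible Hsp90, rose by 2.02, SSE2, an Hsp70 exchange factor, by 2.24, the aggregate-sorting factor BTN2 by 2.50, and the disaggregase HSP104 by 1.57. CNS1, an Hsp90 co-chaperone, was the member not called (0.08).

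These rises were somewhat smaller than with PDR3. In the PDR3-positive PSD1 group all 25 were higher than WT, with a median of 1.204. Set against that group directly, 14 were lower without PDR3 (9.12% of all loci) and none higher (11.8%), with a median of -0.201. SSA1 was lower by 0.45, HSP82 by 0.37 and SSE2 by 0.34 (lost without PDR3-positive replicate 2), while HSP26 (-0.28 ± 0.12), SSA4 (-0.04) and BTN2 (-0.12) were not called. Counts of this kind rested on few libraries. Over all loci the calls between the PSD1 groups were 535 and 233 without PDR3-positive replicates 1 and 2, and 796 and 615 without pdr3Δ replicates 1 and 2. Of 114 named loci called between the PSD1 groups 61 lost the call under at least 1 alternative besides the 2-fold demand. For the heat shock list the calls were 2 to 12 without 1 of these 4 libraries. The list's median stayed between -0.233 and -0.156.

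The general stress genes driven by Msn2 and Msn4 moved furthest of the stress lists. SIP18, a hydrophilin of desiccation, was at 7.73 and 12.9 CPM in WT and at 183.3 and 268.9 in the pdr3Δ group, a 21.8-fold rise (log2 4.44 ± 0.22, adjusted p = 2.95e-07 by edgeR). GRE1, a related hydrophilin, rose by 4.14 ± 0.30, the catalase CTT1 by 3.18, the aldehyde dehydrogenase ALD3 by 3.09 and the phosphogluconate dehydrogenase GND2 by 3.43. Of 35 members 32 were higher than WT and none lower, with a median of 1.70, and GSY1, XBP1 and TPS3 were not called. GCY1 belongs to the galactose list as well. In the PDR3-positive PSD1 group 33 were higher, with a median of 1.82. Against that group 15 were lower (9.12% of all loci) and 3 higher (11.8%) without PDR3, with a median of -0.151. The 15 lower calls became 3 without PDR3-positive replicate 2. The 3 higher calls became 1 without either PDR3-positive library or pdr3Δ replicate 1, and the median was -0.263 without pdr3Δ replicate 2. YGP1, a secreted glycoprotein, and XBP1, a repressor, had the largest of these differences, at -0.68 and -0.58.

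Upstream windows of 3 genes are shown for the elements of the other routes: BTN2 for the heat shock element, SIP18 for the stress element and GAL7 for the galactose element. BTN2 has the largest rise among the heat shock genes whose window holds a match. Strand and source are as above (chrVII:772044-772193, plus strand, for BTN2, chrXIII:610565-610714, plus strand, for SIP18 and chrII:275637-275786, minus strand, for GAL7). Capitals mark matches on either strand to the heat shock forms GAA, NN, TTC, NN, GAA and TTC, NN, GAA, NN, TTC, read without gaps, in BTN2, to AGGGG in SIP18 and to CGG and CCG with 11 bases between them in GAL7.
BTN2: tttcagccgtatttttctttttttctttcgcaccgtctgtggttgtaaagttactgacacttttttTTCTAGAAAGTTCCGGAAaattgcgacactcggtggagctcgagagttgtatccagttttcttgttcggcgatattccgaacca
SIP18: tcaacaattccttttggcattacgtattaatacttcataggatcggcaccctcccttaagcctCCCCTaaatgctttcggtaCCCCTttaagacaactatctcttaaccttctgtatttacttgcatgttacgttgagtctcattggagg
GAL7: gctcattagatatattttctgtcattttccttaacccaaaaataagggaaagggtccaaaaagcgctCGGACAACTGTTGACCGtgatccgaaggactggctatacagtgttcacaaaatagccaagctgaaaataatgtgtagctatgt
The 2 heat shock element matches of BTN2 overlap each other. Such matches were found in 86 of 5593 windows (1.54%), in 10 of 25 heat shock genes (40%) and in 12 of 125 loci called and at least 2-fold higher than WT without PDR3 (9.6%). AGGGG was found in 34.3% of all windows, in 31 of 33 general stress genes (93.9%) and in 83 of the 125 (66.4%). The galactose element was found in 3% of all windows, in 10 of 11 galactose genes (90.9%) and in 19 of the 125 (15.2%). SSA3 and SSA4 hold no match to the strict heat shock forms used here.

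Other protein quality lists rose less. Of 32 proteasome genes 29 were higher than WT and none lower, within a narrow range up to 0.43 (PRE3) and a median of 0.269, against 32 higher and a median of 0.352 with PDR3. Among 28 oxidative stress genes 17 were higher and 1 lower, with the peroxiredoxins AHP1 and TSA2 at 1.62 and 1.47 and the thioredoxin reductase TRR1 lower by 0.19, a call lost without pdr3Δ replicate 1. AHP1 was 0.83 below its level with PDR3, and TSA2 lay 0.27 above it. Between the PSD1 groups 9 of the 28 were lower without PDR3 (9.12% of all loci) and 2 higher (11.8%). With DESeq2 no member of this list, TSA2 included, was called higher without PDR3. Of 19 autophagy genes 9 were higher, led by ATG31 at 0.92 and ATG34 at 0.65, with a median of 0.259, and none was lower.

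Of 30 mitochondrial chaperone and protease genes 9 were higher and 4 lower than WT, against 19.6% and 19.5% of all loci, with a median of 0.088 (0.0435 without WT replicate 2). The chaperonin gene HSP60 was at 1995 and 1747 CPM in WT and at 3512 and 3173 in the pdr3Δ group (log2 0.84 ± 0.08, adjusted p = 2.02e-05 by edgeR), its partner HSP10 rose by 1.21, the disaggregase HSP78 by 1.53, the J protein MDJ1 by 0.83 and the matrix Hsp70 SSC1 by 0.43. HSP60, HSP10, HSP78, MDJ1 and SSC1 were each lower than with PDR3, by 0.27 to 0.41, calls that HSP60, HSP78 and MDJ1 lost without PDR3-positive replicate 2. The list's 8 lower calls between the PSD1 groups (9.12% of all loci) were then 1, and they were 5 without PDR3-positive replicate 1. The peptidase genes OCT1 and MAS2 fell by 0.36 and 0.32 and TCM62, a chaperone related to Hsp60, by 0.20, and the 4 lower calls were 2 without WT replicate 2 or pdr3Δ replicate 2. Of 34 import genes 8 were higher and 5 lower, close to the shares of all loci (19.6% and 19.5%), with a median of 0.004 that was -0.0051 with DESeq2: MIA40, whose product receives cysteine-rich precursors behind the outer membrane, rose by 0.59, and TIM23 and TIM44 of the inner membrane translocase each fell by 0.32. The 8 were 3 or 4 without WT replicate 1 or either pdr3Δ library, and the 5 were 3 without pdr3Δ replicate 2. The mitochondrial ribosome list had 39 of 68 genes higher and 1 lower (a single call that was lost without either pdr3Δ library), and its median was 0.17.

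The endoplasmic reticulum folding list did not follow the cytosol. Of 18 members 2 were higher than WT and 6 lower, against 19.6% and 19.5% of all loci, with a median of -0.129 (-0.0838 without WT replicate 1). With PDR3 9 were higher and 1 lower than the same WT libraries, against 27.9% of all loci in each direction, with a median of 0.169. Between the PSD1 groups 11 were lower without PDR3 (9.12% of all loci) and none higher (11.8%), with a median of -0.237. The 11 became 3 to 7 without 1 of the 4 libraries, fewest without PDR3-positive replicate 2. ERO1, the thiol oxidase of this compartment, was at 132.4 and 109.9 CPM in WT, 260.0 and 248.7 with PDR3 and 171.7 and 169.9 without it. Its level without PDR3 lay between those of the other groups, 0.50 above WT and 0.57 below the PDR3-positive group. KAR2, the luminal Hsp70, was not called against WT (-0.13) and was 0.43 lower than with PDR3. ULI1, a small gene induced by the unfolded protein response, was at 6.26 and 6.77 CPM in WT, 21.0 and 23.0 with PDR3 and 6.38 and 8.28 without it, a difference of -1.59 between the PSD1 groups (adjusted p = 1.39e-04 by edgeR).

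**Figure D4:**
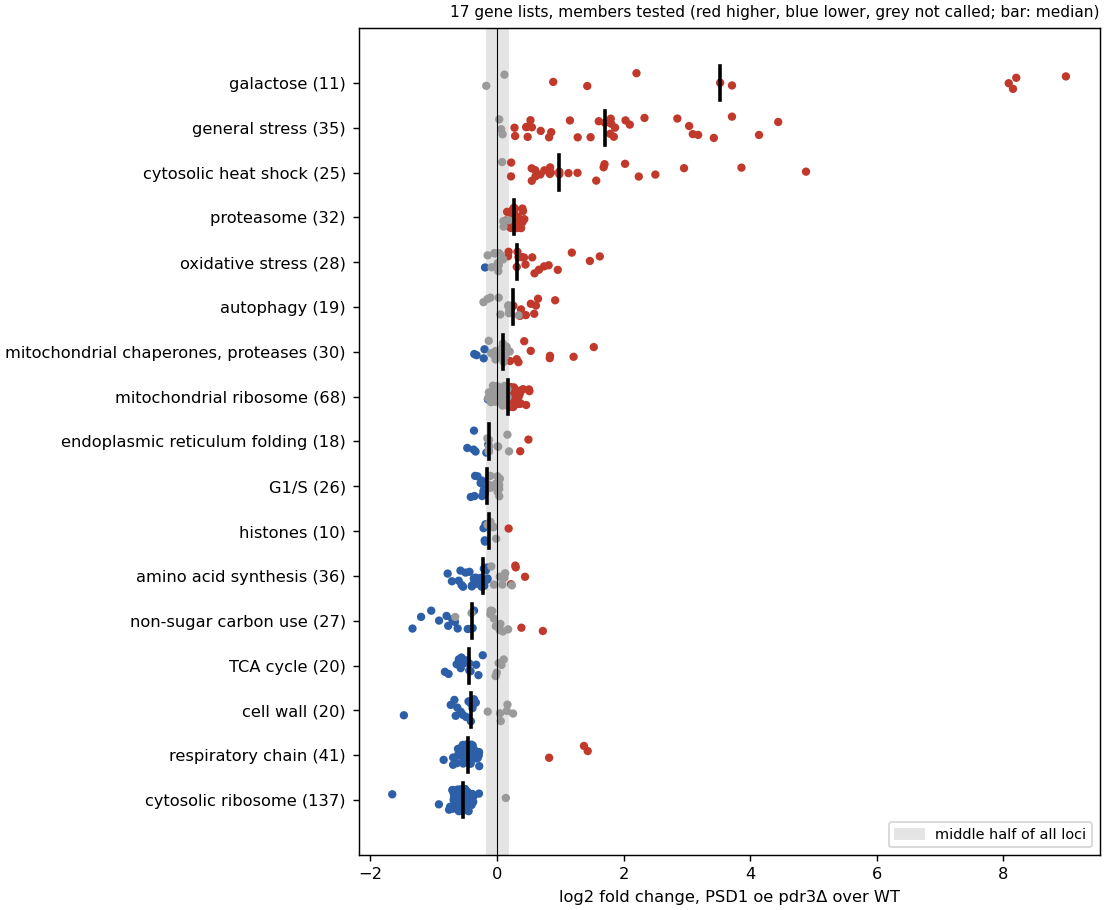
Log2 fold change of the pdr3Δ group over WT for the tested members of 17 gene lists (points, red higher, blue lower, grey not called), with list medians as bars and a grey band from -0.152 to 0.171 that holds the middle of all loci. The medians of the general stress and cytosolic heat shock lists, 1.70 and 0.984, lie to the right of the band. Those of the respiratory chain and cytosolic ribosome lists, -0.454 and -0.541, lie to the left. Some members lie elsewhere, such as 3 respiratory chain genes called higher than WT.

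Respiratory genes fell, and fell less than with PDR3. ATP2, the catalytic subunit of the ATP synthase, was at 4502 and 4044 CPM in WT, 2036 and 2065 with PDR3 and 2769 and 2514 without it. SDH1, the flavoprotein of succinate dehydrogenase, was at 1602 and 1384 CPM in WT, 698.9 and 679.2 with PDR3 and 885.2 and 778.8 without it. In both genes the pdr3Δ libraries lay between the other groups without overlap. Of 41 respiratory chain genes 38 were lower than WT and 3 higher (median -0.454), against a median of -0.851 with PDR3. In the test against that group 38 were higher without PDR3 (11.8% of all loci) and 2 lower (9.12%), with a median of 0.371. The 38 were 24 without PDR3-positive replicate 2. The 3 members above WT were NDE2 (1.43), a second external NADH dehydrogenase, and 2 isoforms of low oxygen, the cytochrome c CYC7 (1.37) and the oxidase subunit COX5B (0.82). Of 20 genes of the tricarboxylic acid (TCA) cycle 15 were lower and none higher, led by ACO1 at -0.82 and FUM1 at -0.77, with a median of -0.439.

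Genes for carbon sources other than sugar followed. JEN1, the lactate and pyruvate permease, was at 593.0 and 610.2 CPM in WT, 159.7 and 148.7 with PDR3 and 256.6 and 267.3 without it, 1.20 ± 0.05 on the log2 scale below WT and 0.76 above the PDR3-positive group (adjusted p = 1.08e-07 and 2.23e-05 by edgeR). ADH2, the alcohol dehydrogenase of ethanol use, fell by 1.34 ± 0.14, the acetyl-CoA hydrolase gene ACH1 by 1.04 and FBP1 of gluconeogenesis by 0.92. Of 27 members 14 were lower and 2 higher, MDH2 (0.72) and CAT2 (0.39), with a median of -0.403, which was -0.152 without WT replicate 2. The 2 were 1 without WT replicate 1 and 6 without WT replicate 2. Glycolytic and fermentation genes went up: of 22 members 12 were higher and 1 lower, HXK2 at -0.33, with a median of 0.176 (0.283 without WT replicate 1). PGK1 rose by 1.16 and GPM1 by 1.00. Between the PSD1 groups 14 of the 22 were lower without PDR3, against 9.12% of all loci, with a median of -0.326. The 14 became 6 to 12 without 1 of the 4 libraries. PDC1, the main pyruvate decarboxylase, was not called against WT (0.03) and was 0.87 lower than with PDR3.

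Among 12 hexose transporters 1 was higher and 4 lower than WT, against 19.6% and 19.5% of all loci, with a median of -0.06 (-0.141 without WT replicate 2). The 4 were 2 without WT replicate 2, either PDR3-positive library or pdr3Δ replicate 1. HXT5, the transporter of slow growth, rose by 2.00 ± 0.25, while HXT2 and HXT7, of high affinity, fell by 1.21 and 0.93. HXT3 was at 27.7 and 29.1 CPM in WT, 89.7 and 85.5 with PDR3 and 27.4 and 33.1 without it. HXT4 was at 49.7 and 55.8 CPM in WT, 106.5 and 108.9 with PDR3 and 41.9 and 47.1 without it. Without PDR3 these 2 transporters, of lower affinity, had log2 fold changes of 0.09 and -0.25 against WT (adjusted p = 0.509 and 0.0314 by edgeR, the latter call lost under 9 alternatives besides the 2-fold demand), with differences of -1.54 and -1.28 between the PSD1 groups. HXT6 and HXT7 are near-identical, which leaves the split of their counts uncertain.

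Ribosomal protein genes fell as well. Of 137 cytosolic ribosomal protein genes 136 were lower than WT and none higher, with a median of -0.541, against -0.765 with PDR3. RPL3 was at 4529 and 4381 CPM in WT and at 3026 and 2929 in the pdr3Δ group (log2 -0.58 ± 0.06, adjusted p = 5.89e-05 by edgeR). RPL15B was the member not called (0.14). At the other end the list reached -1.66, and 1 member was called and at least 2-fold lower than WT. Many of these genes are near-identical pairs, so paralogs cannot be separated with confidence. Against the PDR3-positive group 99 were higher without PDR3 (11.8% of all loci) and 1 lower (9.12%), with a median of 0.224. No member was called higher without PDR3-positive replicate 2, and 48 to 69 were without 1 of the other 3 libraries of these groups, while the median stayed between 0.183 and 0.268. Of 53 ribosome biogenesis genes named UTP, NOP or RRP 15 were lower, 2 higher and 36 not called, with a median of -0.073. Without pdr3Δ replicate 1 there were 7 lower, a share below that of all loci, and the median was -0.0099. The 2 higher calls ranged from 0 to 4 when a library was left out, with 0 without WT replicate 1 or pdr3Δ replicate 2, 1 without either PDR3-positive library and 4 without WT replicate 2.

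Cell cycle genes lay nearer to WT without PDR3 than with it. CLN2, a G1 cyclin, was at 250.6 and 234.2 CPM in WT, 136.4 and 132.3 with PDR3 and 188.8 and 174.7 without it. RNR1, the large subunit of ribonucleotide reductase, was at 617.6 and 589.0 CPM in WT, 334.0 and 339.6 with PDR3 and 524.8 and 524.5 without it. Of 26 genes of the G1 to S transition 13 were lower than WT and none higher, with a median of -0.151, and 8 were lower without pdr3Δ replicate 2. With PDR3 21 were lower than the same WT libraries, with a median of -0.465. The direct test had 16 higher without PDR3 and none lower (median 0.275), against 11.8% and 9.12% of all loci. The 16 became 6 to 14 without 1 of the 4 libraries. Of 10 histone genes 4 were lower than WT and HTZ1 higher. The 4 were 2, 1 and 2 without WT replicate 2, pdr3Δ replicate 1 and pdr3Δ replicate 2, and the call of HTZ1 was lost without the last. All 10 were higher than with PDR3 (median 0.301), against 11.8% of all loci, a count of 3 to 9 without 1 of those libraries. FAR1, an inhibitor of G1 cyclins, was higher than WT by 0.94 ± 0.06 and higher than with PDR3 by 0.50.

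Of 36 amino acid synthesis genes 25 were lower and 4 higher, with a median of -0.216, led by ARG1 at -0.78 and ARO4 at -0.71. The lysine genes LYS20, LYS9 and LYS1 stood on the other side at 0.44, 0.30 and 0.29 with SER3, which is counted with the overlapping SRG1, at 0.22. The 4 higher calls were 2 without WT replicate 1 or pdr3Δ replicate 2 and 8 without WT replicate 2. Of 15 purine genes 5 were higher and 4 lower, against 19.6% and 19.5% of all loci, with 3 higher without WT replicate 1 or pdr3Δ replicate 2. ADE17, the last enzyme of the pathway to inosine monophosphate, was at 40.8 and 51.9 CPM in WT, 199.7 and 229.8 with PDR3 and 99.2 and 98.0 without it. Relative to the PDR3-positive group 10 of the 15 were lower without PDR3, against 9.12% of all loci, with a median of -0.292, and 8 or 9 without 1 of the 4 libraries. Of 25 phospholipid genes, PSD1 included, 5 were higher and 6 lower, close to the 19.6% and 19.5% of all loci, with UPS2, which delivers phosphatidylserine to Psd1, lower by 0.57 and INO1, which makes inositol phosphate, lower by 1.02 ± 0.27. The 5 were 3 without any 1 library other than WT replicate 1, and the 6 were 2 without WT replicate 1 or pdr3Δ replicate 2. Of 24 ergosterol genes 8 were higher and 3 lower, and of 18 iron regulon genes 6 were higher and none lower, against the same 19.6% and 19.5% of all loci. For ergosterol the 8 were 4 without WT replicate 1, and for iron the 6 were 3, 12 and 2 without WT replicate 1, WT replicate 2 and pdr3Δ replicate 2.

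Of 21 sulfur and methionine genes 2 were higher and 6 lower, of 20 thiamine and biotin genes 6 and 4, and of 15 phosphate genes 1 and 2. Over all loci 19.6% were called higher and 19.5% lower, so these small counts show little beyond the background. THI7, the thiamine transporter, rose by 0.69, BIO4 of biotin synthesis fell by 0.96, and the phosphatase gene PHM8 rose by 1.33. The call of BIO4 was lost with DESeq2 and without pdr3Δ replicate 2, among others. The 4 lower calls of the thiamine and biotin list were 1 without WT replicate 1 and 0 without pdr3Δ replicate 2, the 2 lower phosphate calls were 5 and 1 without pdr3Δ replicates 1 and 2, and the 2 higher sulfur calls were 1 without WT replicate 1 or either pdr3Δ library. Of 20 cell wall genes 14 were lower and none higher, with a median of -0.413. CWP1, a mannoprotein, was at 604.0 and 507.6 CPM in WT, 158.6 and 172.7 with PDR3 and 223.6 and 176.9 without it, a fall from WT of 2.77-fold (log2 -1.47 ± 0.11, adjusted p = 5.09e-06 by edgeR). Between the PSD1 groups CWP1 was not called (0.28), whereas TIR1, another mannoprotein gene, was 0.75 lower without PDR3 and not called against WT.

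**Figure D5:**
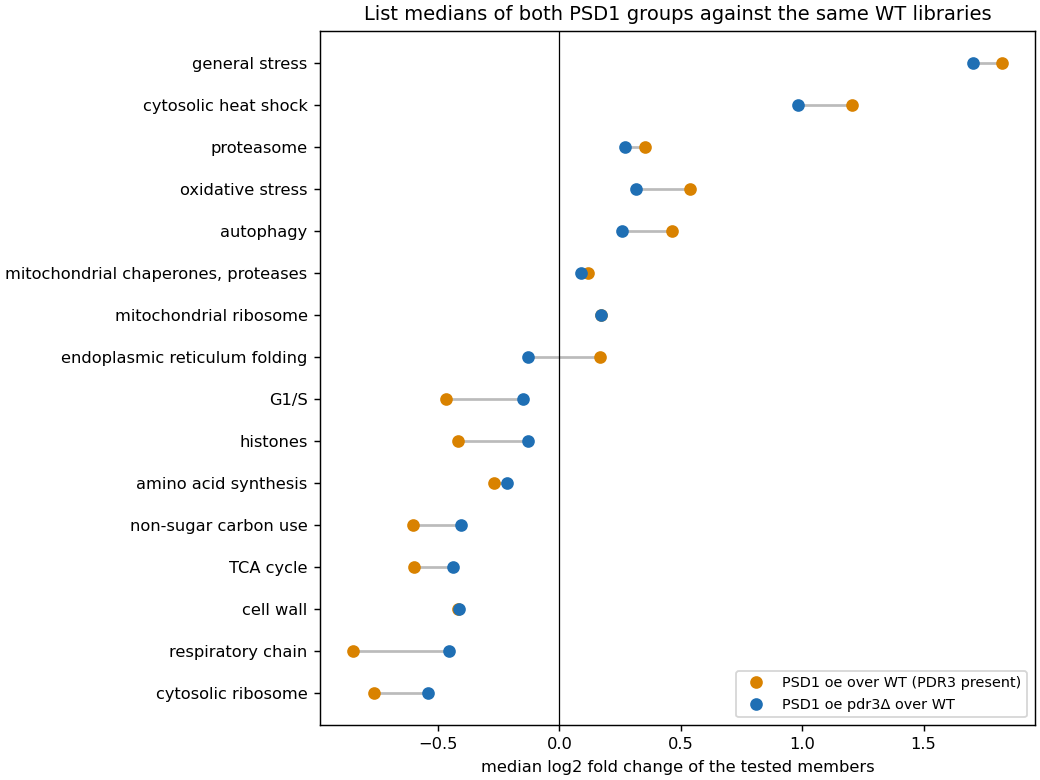
Median log2 fold change over the same WT libraries of the tested members of 16 gene lists in PSD1 overexpression with PDR3 (orange) and without it (blue). The medians without PDR3 lie nearer to 0 in the stress, ribosome, respiratory and cell cycle lists (respiratory chain -0.454 against -0.851), they nearly coincide for the cell wall and the mitochondrial ribosome, and they lie on either side of 0 for endoplasmic reticulum folding (-0.129 against 0.169).

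Among the 12 largest rises over WT, of loci called, without overlap and at a mean log2 CPM of at least 2, were 4 galactose genes (GAL7, GAL2, GAL10 and GAL1), GCY1 with YOR121C, which overlaps it by 255 bases, and the stress genes HSP26, SIP18, GRE1 and SSA3. YMR175W-A, an unnamed reading frame, rose by 3.94 ± 0.34 and FMP16, which encodes a mitochondrial protein, by 3.56 ± 0.08. Among the 12 largest falls by the same rule, after PDR3 and URA3, were CWP1, ADH2, JEN1 and HXT2 already described. The rest were KTR2, a mannosyltransferase gene, at -1.26 ± 0.06, YNR066C at -1.46 and YNR065C at -1.15, PRM5, a pheromone-regulated membrane protein gene, at -1.12, YIG1 at -1.08 and YER068C-A, which overlaps ARG5,6 by 323 bases, at -1.07. KTR2 and PRM5 were also lower than with PDR3, by 0.53 and 0.70.

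A few loci outside the target list separated the PSD1 groups. RTS3, a gene linked to phosphatase function, was at 56.7 and 57.2 CPM in WT, 117.7 and 137.4 with PDR3 and 48.5 and 47.8 without it, and its upstream window holds a TCCGCGGA or TCCGTGGA match. Its call below WT (-0.24) was lost under 7 alternatives, among them each WT or pdr3Δ library left out (adjusted p = 0.08 to 0.12 by edgeR). YOR387C was 0.99 ± 0.24 below WT and 1.47 ± 0.23 below the PDR3-positive group, with its pdr3Δ libraries apart from each other at 32.0 and 15.1 CPM. HO, the mating type endonuclease, was 0.21 below WT and 0.80 above the PDR3-positive group. URA1 and OPT2, an oligopeptide transporter gene, were higher than both other groups, by 0.82 and 1.13 over WT and by 0.58 and 0.54 over the PDR3-positive group, the last lost without either PDR3-positive library. In all, 25 loci were called and at least 2-fold lower without PDR3 than with it (0.405%) and 1 at least 2-fold higher (0.0162%), which was YOR314W at 21 and 17 counts with PDR3 and 47 and 41 without it.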

How the data were processed

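RNA from 6 yeast samples was isolated with RNeasy and sequenced from TruSeq libraries, per the labels. The authors deposited a table of whole-number read counts per locus and a table of FPKM (fragments scaled to transcript length and library size) for the same libraries, with merged transcript models. The submitters' processing notes name Cuffdiff 2.2.0, Cufflinks 2.2.0, TopHat, TopHat2 2.0.9, SAMtools 0.1.18 and Bowtie2 2.1.0, with sacCer3 and R64, in no stated role or order. Which tool made each table, whether counting used strand, and the release of the gene models: not given in the sources used here. Reads of overlapping antisense loci therefore cannot be told apart.

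Of 6931 loci, 6171 passed edgeR's expression filter and 760 did not. Counts of all 3 groups were fitted together with edgeR 4.0.16 in R 4.3.3 (TMM scaling, quasi-likelihood test, no replicate block), and p-values were adjusted by Benjamini-Hochberg over all tested loci at a threshold of 0.05. Errors are standard errors of the fit. The fit was tested on simulated data. Replicate numbers come from the labels. Deviations of same-numbered libraries correlated at 0.041, 0.194 and -0.02 in the 3 pairs of groups, so the numbers were not taken to pair them. Nothing in the labels says that replicates were separate cultures, and p-values may then measure technical spread only.

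Alternatives were DESeq2 1.42.0, limma 3.58.1 (voom on counts, trend on log2 of FPKM plus 1 or 0.1), other scalings, other filters, a 2-fold demand, only the groups compared, the replicate block and each library left out. List values between the PSD1 groups under these alternatives were added after the data were seen. Members and lists were chosen with earlier results of these data known. Genes named are a fixed set, the members of 3 lists, the 12 largest rises and falls against WT, up to 4 called members per list by smallest p with those against the list's majority, and 5 per combination of directions. Other list members, neighbours and YOR314W were named after their values were seen. Upstream windows of 500 bases were read from the RefSeq R64 genome for 5593 loci, with 578 left without one.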

Additional observations from a re-analysis of the deposited data

Results flagged for a closer look

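Some loci were called on opposite sides of the shared WT libraries in the PSD1 groups, and for each the difference between the PSD1 groups was itself called by edgeR's quasi-likelihood test. PDR3, which was deleted, was left out. Of the transport and lipid genes among the Pdr targets, PDR5 had a difference of -4.08 (pdr3Δ minus PDR3-positive, log2), TPO1 of -0.46 and IPT1 of -0.39. For TPO1 and IPT1 the fall from WT was small, at -0.22 and -0.15, and its call was lost without pdr3Δ replicate 1 or 2. TPO1 also lost the call between the PSD1 groups without PDR3-positive replicate 2.

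RTS3 differed by -1.40 and HXT4 by -1.28, with falls from WT of 0.24 and 0.25 and rises of 1.16 and 1.03 with PDR3. The call of RTS3 below WT was lost under 7 alternatives (DESeq2, limma-voom, library totals and each WT or pdr3Δ library left out), and that of HXT4 under 9. IML2, a gene needed to clear protein inclusions, differed by -0.83 and HPT1, the hypoxanthine-guanine phosphoribosyltransferase, by -0.56. SIL1, an exchange factor of Kar2, differed by -0.54, FAA4, a fatty acyl-CoA synthetase, by -0.49, and ADD37 by -0.46. The sizes of their separate changes from WT are not given here. SUR7, of the eisosome membrane domain, was the locus in the other direction, at 0.32, with 0.16 against WT without PDR3 and -0.16 with it. For IML2, HPT1, SIL1, FAA4, ADD37 and SUR7 no result under the alternatives is given here, so their calls are not shown to be stable. With 2 libraries per group no single library could be tested as standing apart.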

How the results depend on the processing

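Among the named loci no called value changed sign, against WT or between the PSD1 groups. List medians near 0 did, among those against WT that of other drug transporters (0.0025, with -0.0569 without pdr3Δ replicate 2), of import (0.0035, with -0.0051 by DESeq2) and of phospholipid synthesis. The 2415 calls against WT ranged from 1799 (DESeq2) to 2483 (replicate block, 2379 of them shared), and from 1801 to 2226 with a library left out (882 to 1111 higher, 919 to 1115 lower). A 2-fold demand left 163 (138 higher, 25 lower). Between the PSD1 groups the 1291 calls were 814 with DESeq2 (481 higher, 333 lower), 825 on log2(FPKM + 1) (438 higher), 829 on log2(FPKM + 0.1) (439 higher), 26 at 2-fold (1 higher, 25 lower) and 1393 with the replicate block. With a library left out they ranged from 233 to 1533 (101 to 846 higher, 132 to 688 lower), lowest without PDR3-positive replicate 2, where lower calls outnumbered higher ones. For the PDR3-positive group against WT the range was 2732 to 3388, with 301 at 2-fold (242 higher, 59 lower). The cause of these moves was not tested. Of 205 named loci called against WT 46 lost the call under at least 1 alternative besides the 2-fold demand, and of 114 called between the PSD1 groups 61 did. With 2 libraries per group, 3 residual degrees of freedom and no control labelled as induced or plasmid-bearing, small differences rest on single libraries, and direct differences between the PSD1 groups come with a difference in PSD1 RNA.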

Other observations

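The pyrimidine genes, looked at after the fall of URA3 was seen, moved in both directions. URA1, dihydroorotate dehydrogenase, was at 514.5 and 504.1 CPM in WT, 610.2 and 592.5 with PDR3 and 857.0 and 942.8 without it, so that the pdr3Δ libraries lay above both other groups. By edgeR's quasi-likelihood test it was 0.82 ± 0.06 above WT and 0.58 above the PDR3-positive group on the log2 scale. URA2, the first enzyme of the pathway, rose from WT by 0.53 ± 0.07, URA4 by 0.39, URA8 by 0.49 and URA10 by 1.22, while URA5 fell by 0.29. PPR1, the activator of URA1 and URA3, was not called, at 0.14, and the uracil permease gene FUR4 was not called against WT, at 0.12. These genes were chosen with their values known.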
